A study of Mus musculus with 4 samples.

Results

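Transcript levels of 10 transcription factors that act between the double-positive and the mature thymocyte stage were followed in sorted mouse thymocytes. The set was named by gene: the E proteins Tcf3, Tcf4 and Tcf12, their inhibitors Id2 and Id3, the HMG-box factors Tcf7 (TCF1), Lef1 and Sox4, the chromatin organiser Satb1, and Myb. All 10 were found among the 35275 listed genes, and all 10 were among the 12490 genes with at least 2 CPM (counts scaled to a common library size) in at least 1 library. RNA sequencing was done on thymocytes of untreated C57BL/6 mice aged 6 to 8 weeks, sorted on TCRβ and CD69 into group 2 (intermediate TCRβ, high CD69) and group 3 (high TCRβ, high CD69). The WT libraries came from Uba3F/F mice, called wild type in the labels. The KO libraries came from Uba3ΔT mice, called Uba3-/- in the labels. The product of Uba3 is the catalytic subunit of the NEDD8-activating enzyme, which starts the attachment of NEDD8 to cullins. Each of the 4 combinations of genotype and sorted group was 1 library. The labels give neither the Cre driver nor the number of mice behind a library.

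E proteins are basic helix-loop-helix factors that bind E boxes as dimers and hold thymocytes at the double-positive stage, where they sustain recombinase and pre-TCR genes. Id proteins have the helix-loop-helix but no DNA-binding region, so they capture E proteins. TCR signals induce Id3 through Egr factors, and Id2 is known to accumulate as cells mature. TCF1 and LEF1 bind a shared DNA motif, recruit Groucho-type corepressors or β-catenin, and steer CD4 lineage choice with SATB1 and Myb upstream of Zbtb7b.

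The libraries held 8043077 to 10299863 counts. Uba3 went against the KO label: it had 453 counts in WT group 2, 356 in WT group 3, 647 in KO group 2 and 856 in KO group 3. Its scaled level was 1.70 times WT in the group 2 library labelled KO (95% counting interval 1.5 to 1.92) and 2.06 times in the group 3 library labelled KO (1.82 to 2.34). A count over the whole gene does not separate deleted from retained exons, so it does not check the deletion itself, and every direction below between genotypes is between libraries labelled KO and WT. The T cell genes Cd3e, Cd3d, Cd3g, Lck, Trac, Cd4, Cd8a and Cd8b1 were abundant in all 4 libraries. WT group 3 and KO group 2 listed more genes with at least 1 count, 23325 and 23925, than WT group 2 and KO group 3, with 20440 and 20521. The part that this split plays in any difference below was not tested. Of the 10 factors, Tcf3 and Sox4 were highest in the 2 libraries that listed more genes. For Tcf3, however, KO group 3 did not lie below those 2 libraries beyond counting error.

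Within each library, Tcf7 was the most abundant of the 10 per length and Tcf4 the least. Tcf7 stood at 2078 RPKM (reads per kilobase of gene length, scaled to library size) in WT group 2, 2100 in WT group 3, 1975 in KO group 2 and 1693 in KO group 3. Tcf4 stood at 18.7, 15.4, 15.1 and 12.4 RPKM in the same order of libraries. Satb1, Id3 and Lef1 followed Tcf7 in that order in all 4 libraries, with 1212 to 1855, 585 to 737 and 423 to 449 RPKM. Sox4 held 167 to 222 RPKM, Tcf3 117 to 141, Tcf12 101 to 125, Id2 101 to 188 and Myb 73.9 to 137. Neighbours whose counting intervals overlapped were Tcf12 and Tcf3 and also Tcf3 and Id2 in WT group 2, and Myb and Id2 in KO group 2. The order below Tcf7 depends on the gene length. With all annotated exons merged, Tcf12 takes the ninth place in every library and Sox4 lies above Lef1. Id3 then exceeds Satb1 in every library but WT group 3. Merged exons are 6.29 times the deposited length for Tcf12, 5.95 times for Satb1 and 2.34 times for Id3. For Lef1 they are 2.89 times that length and for Sox4 1.0 times. Tcf7 stays the highest and Tcf4 the lowest. By mean CPM, Satb1 and Tcf7 ranked 5 and 8 of the 12490 genes, and Tcf4 ranked 5213.

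**Figure D1:**
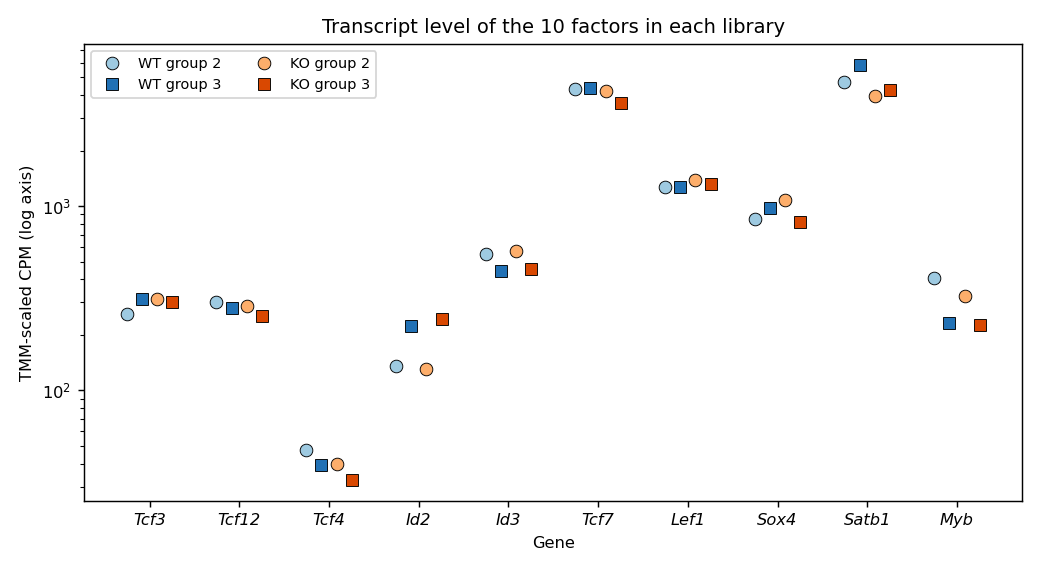
Level of each factor in each library, as TMM-scaled CPM on a log axis; circles are group 2, squares group 3, blue WT and orange the libraries labelled KO, with 1 library a point. Id2 is higher and Myb lower in both group 3 libraries, Satb1 is lower in both libraries labelled KO, and the other factors lie within 1.46 times from the lowest to the highest library.

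Starts of 3 members are shown because Id2 and Myb changed between sorted groups and Sox4 differed most between the genotypes' steps. The bases are from RefSeq (GRCm38.p6), 5′ to 3′ on the gene's strand, cut to what lies outside annotated exons. The E box CAGNTG, searched on both strands, is in capitals.
Id2: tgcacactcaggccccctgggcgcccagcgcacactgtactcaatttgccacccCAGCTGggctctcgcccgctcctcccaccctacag
Myb: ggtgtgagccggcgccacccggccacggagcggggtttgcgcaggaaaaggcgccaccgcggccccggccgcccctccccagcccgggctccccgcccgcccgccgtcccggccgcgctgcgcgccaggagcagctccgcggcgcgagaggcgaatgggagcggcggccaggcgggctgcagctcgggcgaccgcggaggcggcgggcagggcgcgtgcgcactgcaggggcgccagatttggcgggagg
Sox4: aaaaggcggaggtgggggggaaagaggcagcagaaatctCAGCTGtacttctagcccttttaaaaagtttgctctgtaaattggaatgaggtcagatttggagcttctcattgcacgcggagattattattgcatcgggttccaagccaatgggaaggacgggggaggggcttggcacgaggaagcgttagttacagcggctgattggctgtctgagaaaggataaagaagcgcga
The Id2 run is chr12:25096254-25096342, minus strand, 89 bases. It starts 250 bases before the RefSeq start and lies within the longer Id2 gene of the annotation. Its E box begins 196 bases before the start. The Myb run is chr10:21160985-21161234, minus strand, 250 bases, with no E box. The Sox4 run is chr13:28953714-28953949, minus strand, 236 bases, with an E box 211 bases before the start. RefSeq windows of 250 bases before a start were matched for 9 of the 10 members, 19 windows in all. The E box lay in 6 of the 19 windows, against 44.8% of 32851 windows of all genes. The TCF and LEF motif CTTTGA lay in 1 of the 19, a Lef1 window, against 13.8% of all. A match is a description of letters and not a bound site.

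Between the sorted groups, the Id genes differed from each other. Id2 (ENSMUSG00000020644, mm10 chr12:25093799-25097140, minus strand) rose from group 2 to group 3, with 136 CPM in WT group 2, 224 in WT group 3, 130 in KO group 2 and 243 in KO group 3, scaled by the trimmed mean of M values (TMM). Both group 3 libraries lay above both group 2 libraries. The step was 1.65-fold in WT (95% counting interval 1.54 to 1.77), beside 1.86-fold between the libraries labelled KO (1.73 to 2.00). In an additive model over the 4 libraries, edgeR's quasi-likelihood test gave Id2 a shared step of 0.81 log2 (SE 0.15, Benjamini-Hochberg adjusted p = 9.53e-06 over 12490 genes). With 1 library a group, that test has 1 residual degree of freedom. Its error is a trend common to all genes, so the p does not measure variation between mice.

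Id3 (ENSMUSG00000007872, chr4:136143497-136145755, plus strand) was the more abundant inhibitor in every library, and its step went the other way. It had 553 CPM in WT group 2, 442 in WT group 3, 571 in KO group 2 and 455 in KO group 3. The ratio of group 3 to group 2 was 0.80 (0.768 to 0.835) in WT and 0.796 (0.764 to 0.829) in the libraries labelled KO, so the libraries of the sorted groups did not overlap. The shared step of -0.33 log2 (SE 0.14) did not pass edgeR's test (adjusted p = 0.255). Within a library, which needs no scaling between libraries, Id3 over Id2 was 6.77 in WT group 2, 3.29 in WT group 3, 7.29 in KO group 2 and 3.12 in KO group 3, per deposited length. In group 3 that ratio was 0.486 of its group 2 value in WT (0.448 to 0.527) and 0.428 of it in the libraries labelled KO (0.394 to 0.464), beyond counting error in both. Between genotypes it was 1.08 times WT in group 2 (0.988 to 1.17) and 0.948 times in group 3 (0.879 to 1.02), both intervals including 1.

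Of the 10 factors, 2 passed edgeR's test for a shared step between sorted groups, Id2 upward and Myb downward, against 3.35% of the 12490 genes (2.21% upward, 1.14% downward) and 5.08% of the 5213 genes at least as abundant as Tcf4. None of the 10 reached 2-fold in either genotype alone, against 7.08% of genes in WT and 7.84% in the libraries labelled KO. Among the 5213 abundant genes those shares were 0.882% and 0.978%. Counting intervals of the ratio excluded 1 for 9 factors in WT (all but Lef1) and for 9 in the libraries labelled KO (all but Tcf3), against 47.9% and 48.6% of all genes and 59.7% and 60.3% of the abundant ones. They excluded 1 the same way in both genotypes for 6 factors, Tcf4, Tcf12, Id2, Id3, Satb1 and Myb (15.8% of all genes), and in opposite ways for 2, Sox4 and Tcf7 (10.2%), of which Tcf7 had both steps below 1 when the scaling used all listed genes. The shares for the same way and for opposite ways were not computed for the abundant genes, so they are not matched for abundance. The members' median shared step was -0.10 log2, beside -0.01 over all genes.

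Myb (ENSMUSG00000019982, chr10:21124935-21160984, minus strand), which supports survival and lineage choice of double-positive cells, fell. It had 405 CPM in WT group 2, 230 in WT group 3, 325 in KO group 2 and 226 in KO group 3. Both group 3 libraries lay below both group 2 libraries, and the group 2 libraries differed from each other beyond counting error, while the interval between the group 3 libraries included 1. Group 3 over group 2 was 0.569 (0.539 to 0.601) in WT and 0.695 (0.657 to 0.735) in the libraries labelled KO. edgeR gave a shared step of -0.67 log2 (SE 0.14, adjusted p = 0.000319). In bulk RNA from a sort, fewer cells of a type and less RNA per cell cannot be told apart. The shared steps of Id2 and Myb did not pass when genotype was left out of the edgeR model (adjusted p = 0.158 and 0.368). Fits with any 1 of the 4 libraries left out also lacked genotype, so they do not isolate the part of that library. There the steps did not pass either, at 0.75 to 0.87 log2 for Id2 and -0.83 to -0.51 log2 for Myb.

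The E proteins themselves differed little. Tcf3 (E2A; ENSMUSG00000020167, chr10:80409514-80433647, minus strand) had 258 CPM in WT group 2, 313 in WT group 3, 312 in KO group 2 and 301 in KO group 3, so the WT group 2 library lay below the other 3, and the 2 highest values were in the libraries that listed more genes. Its step was 1.21-fold (1.15 to 1.28) in WT, beside 0.963-fold (0.914 to 1.02) between the libraries labelled KO. Tcf12 (HEB; ENSMUSG00000032228, chr9:71842688-72111871, minus strand), the usual partner of E2A in thymocytes, had 302, 278, 288 and 254 CPM in the same order, with steps of 0.921 (0.872 to 0.972) and 0.882 (0.834 to 0.933). Tcf4 (E2-2; ENSMUSG00000053477), the E protein of plasmacytoid dendritic and B cells, had 498, 321, 350 and 310 counts, or 47.4, 39.4, 39.6 and 32.6 CPM. Its steps were 0.830 (0.719 to 0.957) and 0.821 (0.703 to 0.960). None of the 3 passed edgeR's shared test (adjusted p = 0.967 for Tcf3, 0.905 for Tcf12 and 0.749 for Tcf4).

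The balance within the E protein pair shifted in the library that stood apart for Tcf3. Tcf12 over Tcf3 was 1.06 in WT group 2, 0.808 in WT group 3, 0.841 in KO group 2 and 0.770 in KO group 3, on deposited lengths. The summed E proteins over the summed Id genes, in RPKM, was 0.308, 0.354, 0.318 and 0.317 in the same order. The WT step of that ratio was 1.15-fold (1.09 to 1.21), and that between the libraries labelled KO was 0.996 (0.946 to 1.05). Against WT, the ratio was 1.03 times in group 2 (0.985 to 1.09) and 0.896 times in group 3 (0.850 to 0.945). These sums depend on how genes are weighted: the WT step was 1.22-fold with merged exons and 1.07-fold on raw counts.

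**Figure D2:**
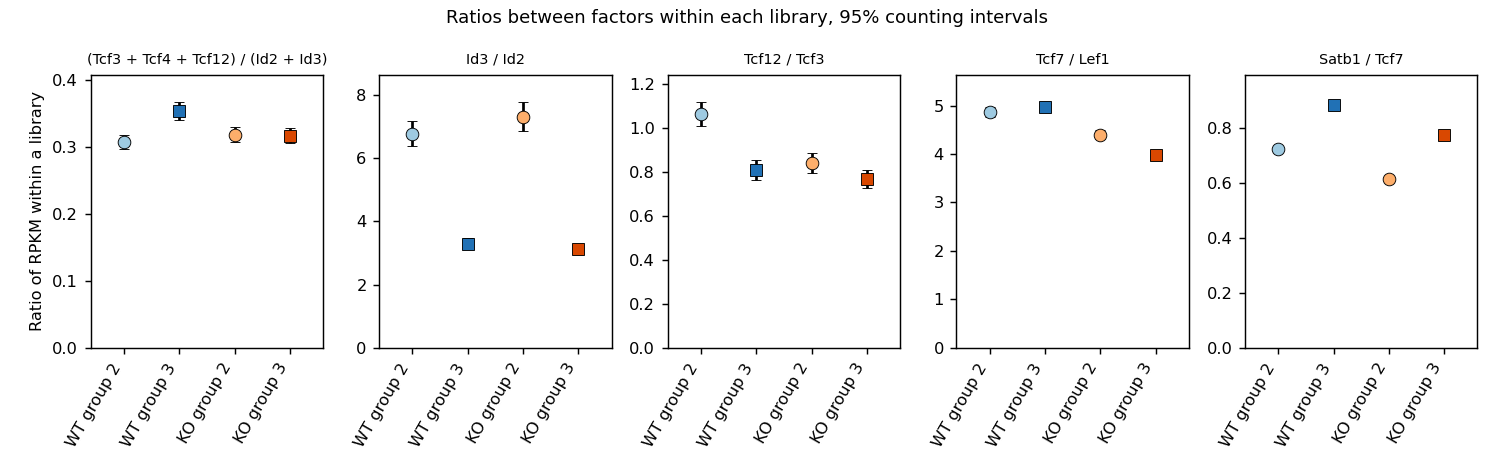
Ratios of RPKM between factors within each of the 4 libraries, on linear axes from 0, with bars for 95% counting intervals. Id3 over Id2 lies between 6.77 and 7.29 in group 2 and between 3.12 and 3.29 in group 3; Tcf7 over Lef1 and Satb1 over Tcf7 are lower in both libraries labelled KO than in the WT library of the same sorted group.

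Among the HMG-box factors, the step differed between genotypes for Sox4 and Tcf7. Sox4 (ENSMUSG00000076431, chr13:28948919-28953713, minus strand), a factor of T cell progenitors, had 846 CPM in WT group 2, 979 in WT group 3, 1082 in KO group 2 and 814 in KO group 3. The WT step was 1.16-fold (1.12 to 1.19), and in the libraries labelled KO it was 0.753-fold (0.730 to 0.776). The 2 libraries with high Sox4 are the 2 that listed more genes with counts. The T cell receptor gene Trac was also highest in those 2 libraries, at 2129, 2376, 2610 and 2082 CPM. So were Cd3e and Cd3g, while Cd3d, Lck, Cd4, Cd8a and Cd8b1 were not. The sum of the erythroid markers, at 361, 403, 538 and 395 CPM, stood apart in KO group 2 alone.

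Tcf7 (ENSMUSG00000000782, chr11:52252371-52283014, minus strand) had 4296 CPM in WT group 2, 4364 in WT group 3, 4225 in KO group 2 and 3629 in KO group 3. The KO group 3 library stood below the other 3. The step was 1.02-fold (1.0 to 1.03) in WT, beside 0.859-fold (0.846 to 0.872) between the libraries labelled KO. With scaling over all listed genes the WT value was -0.0054 log2. Lef1 (ENSMUSG00000027985, chr3:131110471-131224356, plus strand), which binds the same motif, had 1275, 1269, 1388 and 1317 CPM and the narrowest range of the 10, 1.09-fold. No shared step passed edgeR's test for Sox4 (-0.10 log2, adjusted p = 0.972), Tcf7 (-0.10 log2, 0.952) or Lef1 (-0.04 log2, 0.9995). Genes overlapping Tcf7 were 2 in number: an antisense gene with 0.161 to 0.302% of its counts and a gene on the same strand with 0.308 to 0.415%.

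Satb1 (ENSMUSG00000023927, chr17:51736187-51833290, minus strand), which organises chromatin at lineage genes in double-positive cells, had 4716 CPM in WT group 2, 5851 in WT group 3, 3935 in KO group 2 and 4263 in KO group 3. Its level was higher in group 3 within each genotype, by 1.24-fold in WT (1.23 to 1.26) and by 1.08-fold (1.07 to 1.10) between the libraries labelled KO. The shared step of 0.21 log2 (SE 0.11) did not pass edgeR's test (adjusted p = 0.493).

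**Figure D3:**
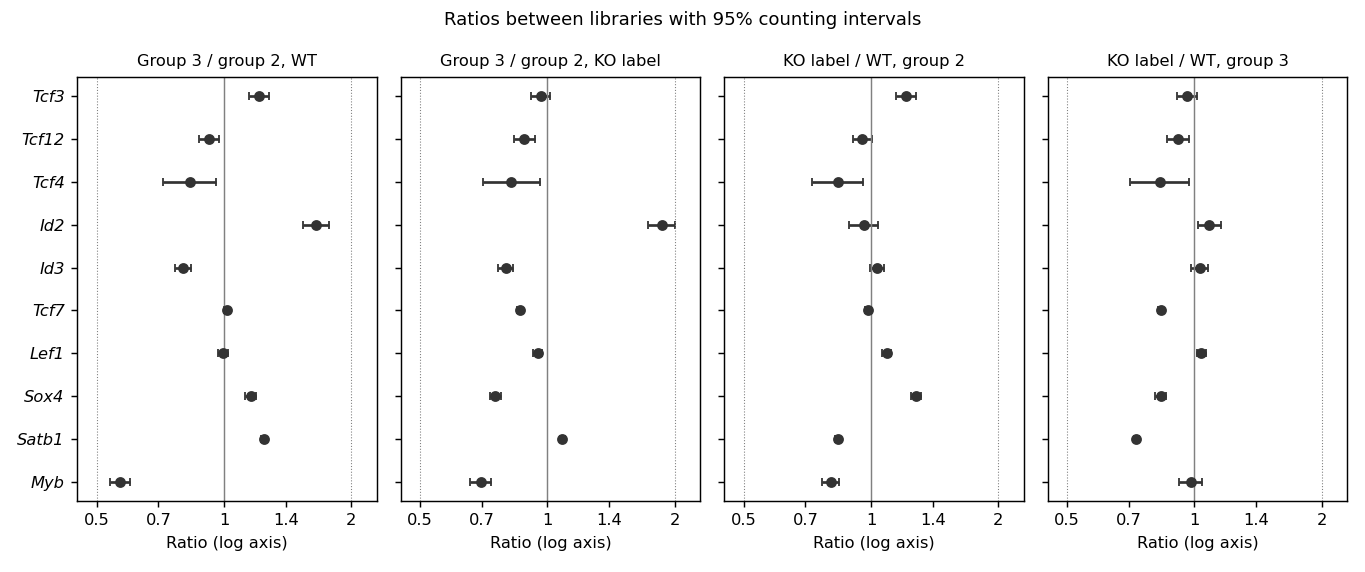
Ratio of scaled counts between 2 libraries for each factor (log axis; bars are 95% counting intervals; dotted lines mark 2-fold). The left panels compare group 3 with group 2 in each genotype and the right panels compare the library labelled KO with WT in each sorted group; no factor reaches 2-fold in any panel.

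Between genotypes, Satb1 fell in the libraries labelled KO, the only 1 of the 10 factors to pass edgeR's shared test, against 4.82% of all genes (2.95% higher, 1.87% lower) and 6.45% of the abundant genes. Both libraries labelled KO lay below both WT libraries. The ratio was 0.834 (0.823 to 0.846) in group 2 and 0.729 (0.719 to 0.738) in group 3, and the shared effect was -0.36 log2 (SE 0.11, adjusted p = 0.0315). The call held under 4 of 9 other settings and was lost with a 10 CPM filter (adjusted p = 0.118), DESeq2 (0.196), limma-voom (0.0850), edgeR's robust shrinkage (0.215) and without sorted group in the model (0.499). Leaving out any 1 library, in fits that also lacked sorted group, lost it as well, with effects of -0.51 to -0.20 log2. Genes of other programmes moved beside it: 11 of 16 proliferation genes fell, with summed levels of 3072 and 2837 CPM in WT groups 2 and 3 and 2341 and 2105 in the libraries labelled KO. Of 16 immature double-positive genes, 8 fell and 1 rose, with summed levels of 10047, 8426, 8937 and 6284 CPM. The part of either in the Satb1 difference was not tested. Within a library, Satb1 over Tcf7 was 0.723 in WT group 2, 0.884 in WT group 3, 0.614 in KO group 2 and 0.774 in KO group 3.

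None of the other 9 factors passed the edgeR test of genotype, with adjusted p from 0.658 for Tcf4 to 0.978 for Id2, and shared effects from -0.27 log2 for Tcf4 to 0.11 for Tcf3. No factor reached 2-fold within a sorted group, against 8.90% of genes in group 2 and 7.77% in group 3, or 1.09% and 0.710% of the abundant genes. The members' median shared effect was -0.03 log2, beside 0.0014 over all genes. Both Id genes were near WT levels. Id3 stood at 1.03 times WT in group 2 (0.996 to 1.07) and 1.03 times in group 3 (0.984 to 1.08). Id2 stood at 0.960 times (0.888 to 1.04) and 1.08 times (1.02 to 1.15). These intervals bound the difference between the libraries and not between the genotypes.

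Between these single libraries, the ratio of KO label to WT differed between the sorted groups beyond counting error for several factors. Sox4 was 1.28 times WT in the group 2 library labelled KO (1.24 to 1.32) and 0.832 times in group 3 (0.806 to 0.859). The change in its log2 ratio from group 2 to group 3 was -0.62 (counting interval -0.68 to -0.56), the largest of the 10. Tcf3 was 1.21 times WT in group 2 (1.15 to 1.27) and 0.960 times in group 3 (0.910 to 1.01), a change of -0.33 (-0.44 to -0.22).

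Myb went the other way, at 0.803 times WT in group 2 (0.765 to 0.842) and 0.980 times in group 3 (0.921 to 1.04), a change of 0.29 (0.18 to 0.40). Tcf7 was 0.983 times WT in group 2 (0.970 to 0.997) and 0.832 times in group 3 (0.819 to 0.844), a change of -0.24 (-0.27 to -0.21). Lef1, by contrast, was 1.09 times (1.06 to 1.12) and 1.04 times WT (1.01 to 1.07). Tcf7 over Lef1 within a library was therefore 4.87 and 4.97 in WT groups 2 and 3 and 4.39 and 3.98 in the libraries labelled KO, or 0.903 times WT in group 2 (0.878 to 0.929) and 0.801 times in group 3 (0.778 to 0.826). For 7 of the 10 factors the interval of the change excluded 0. The share of all genes with such an interval was not computed, so this count is not a result about the factors. Tcf4, Tcf12 and Id3 were the other 3. These intervals hold counting error only, and with 1 library in each group the change itself has no test. Between genotypes, counting intervals excluded 1 for 7 factors in group 2 and 7 in group 3, against 53.2% and 48.2% of all genes and 62.7% and 58.5% of the abundant ones, so such an interval is common at this depth. They did so the same way in both sorted groups for 4, Tcf4, Tcf7, Lef1 and Satb1 (18.6% of all genes). In opposite ways they did so for Sox4 alone of the 10 (9.50%). Neither share was computed for the abundant genes, so neither is matched for abundance.

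**Figure D4:**
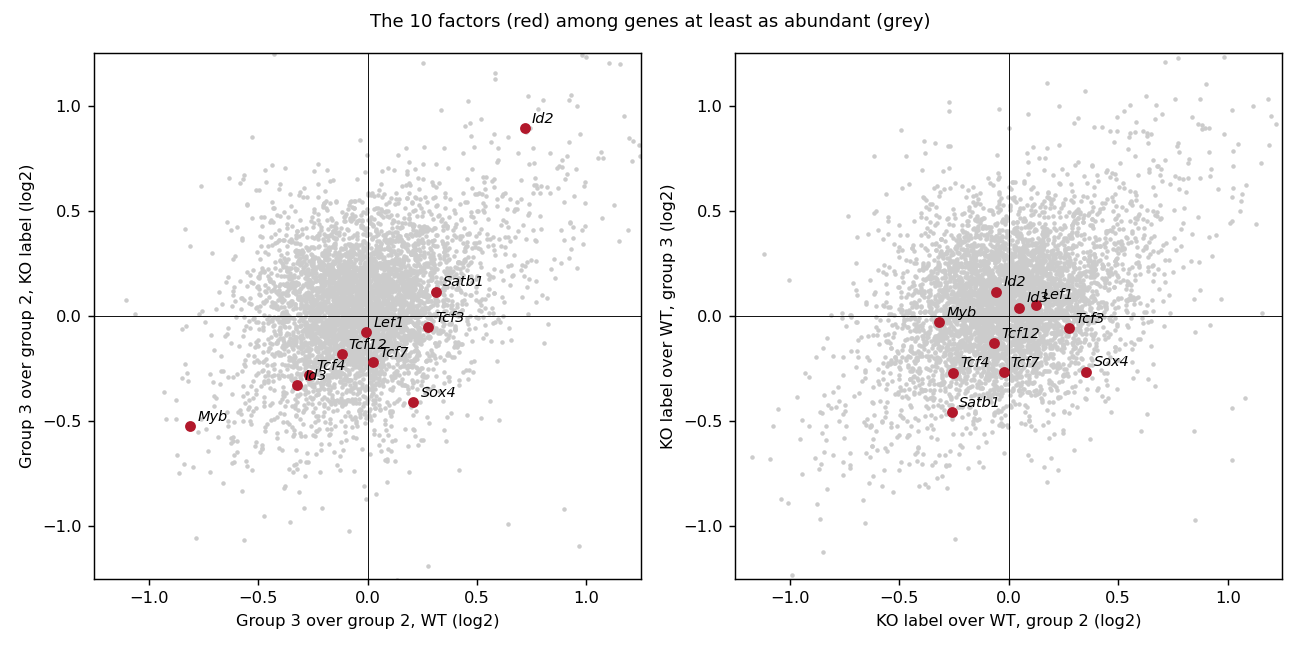
Log2 ratios for the 10 factors (red) and the 5213 genes at least as abundant as Tcf4 (grey): left, group 3 over group 2 in WT and in the libraries labelled KO; right, the library labelled KO over WT in group 2 and in group 3. Id2 lies high and Myb low on both axes at left, Satb1 low on both axes at right, and Sox4 on opposite sides of 0 in both panels; 44 and 36 genes lie outside the axes.

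Partners and inducers of the E and Id proteins were measured beside them. Of 22 listed genes, 13 were measured; 2 rose in the libraries labelled KO and 1 rose from group 2 to group 3. Egr1, a signal-induced factor that activates Id3, was in both counts. It had 251 CPM in WT group 2, 348 in WT group 3, 355 in KO group 2 and 671 in KO group 3, with shared edgeR effects of 0.72 log2 for genotype (adjusted p = 2.99e-05) and 0.70 for sorted group (8.54e-05). Within each genotype Egr1 was higher and Id3 lower in group 3; Egr1 in WT group 3 did not exceed Egr1 in KO group 2. Lmo4, a LIM-only adaptor protein, had 179, 149, 337 and 278 CPM and a genotype effect of 0.91 log2 (SE 0.15, adjusted p = 1.44e-07).

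Of 16 genes listed as dependent on E proteins in double-positive cells, 3 fell and 1 rose in the libraries labelled KO. Ptcra, the pre-TCR α chain, had 71.9 CPM in WT group 2, 69.9 in WT group 3, 34.5 in KO group 2 and 26.1 in KO group 3 (-1.24 log2, SE 0.19, edgeR adjusted p = 8.04e-09). The recombinase genes Rag2 and Rag1 fell by 0.77 and 0.62 on the log2 scale. Dtx1, a Notch pathway gene, rose by 2.12 log2, with 7.53, 13.6, 38.7 and 50.7 CPM. Tcf3 and Tcf12 did not pass the same test. From group 2 to group 3, Il7r, the interleukin-7 receptor, rose by 1.18 log2 and Dntt, which adds bases at V(D)J junctions, fell by 0.39. Ptcra, Rag1, Rag2 and Dntt are also on the immature double-positive list, and Il7r is also on the mature thymocyte list. The list of genes dependent on E proteins does not say in which direction each gene depends on them.

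Of 22 measured cofactors and relatives of TCF1 and LEF1, none passed the genotype test and 1 passed the test between sorted groups. Jup (γ-catenin) fell by 0.67 log2 (SE 0.16, edgeR adjusted p = 0.00191), with 125 CPM in WT group 2, 98.0 in WT group 3, 123 in KO group 2 and 62.3 in KO group 3. Ctnnb1 (β-catenin) had 157 to 187 CPM and an adjusted p of 0.615 for genotype. Tcf7l1 and Tcf7l2, the other TCF genes, had at most 3.19 and 9.93 CPM.

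Maturation genes moved with the Id2 and Myb steps: 11 of 18 mature thymocyte genes rose and 1, Cd5, fell from group 2 to group 3. Their summed levels were 3398 CPM in WT group 2, 4856 in WT group 3, 4091 in KO group 2 and 5993 in KO group 3. Ccr7, a chemokine receptor of mature thymocytes, rose by 1.75 log2 (SE 0.14, edgeR adjusted p = 1.58e-30). Of 16 immature double-positive genes, 3 fell. None of 16 proliferation genes passed between sorted groups.

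Genes of other cells were present at levels that differed by list. Of the 12 plasmacytoid dendritic cell markers, 9 were measured and Tlr9 had 0 counts in all 4 libraries; the defining gene Siglech had 0.191 to 5.32 CPM. The summed list stood at 64.6 CPM in WT group 2, 139 in WT group 3, 99.9 in KO group 2 and 137 in KO group 3, of which Pacsin1 gave 38.1 to 92.4. Tcf4 was highest in WT group 2, where that list was lowest. Of 12 B cell markers, 8 were measured and none changed; Pax5 had 0.123 to 0.420 CPM, while Ighm, which thymocytes can transcribe, gave 722 to 1048 of the summed 794 to 1122 CPM. The innate-like and NK list, 16 of 18 measured, summed to 616 CPM in WT group 2, 535 in WT group 3, 609 in KO group 2 and 478 in KO group 3, lower where Id2 was higher. The list's defining genes Zbtb16 and Ncr1 had at most 2.70 and 3.17 CPM. By edgeR's genotype test 1 gene of the list, Gzma, rose in the libraries labelled KO and 0 fell. The median shared genotype effect over the measured genes of the list was -0.06 log2. Of 13 measured dendritic cell and macrophage markers, C1qb rose in the libraries labelled KO (3.72, 8.09, 9.18 and 15.8 CPM). That list summed to 219 to 297 CPM, of which Cst3 gave 136 to 185. Erythroid markers, 5 of 10 measured, were not low: they summed to 361 CPM in WT group 2, 403 in WT group 3, 538 in KO group 2 and 395 in KO group 3, of which the globin gene Hbb-bs gave 180 to 275. Epithelial and stromal markers, 5 of 15 measured, summed to 151 to 164 CPM, of which Pecam1 gave 100.4 to 122. None of the measured erythroid, epithelial or stromal markers passed either test.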

How the data were processed

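The deposited table holds counts per Ensembl gene, made by the authors, for 4 libraries. The submitters' processing notes name TopHat2 2.0.12 and the mm10 build. What program, annotation and strand setting were used for counting is not given in the sources used here, so overlapping genes cannot be told apart. The authors also deposited RPKM per library; these give 1 whole gene length within 0.01 bp for 100% of values, and were used for levels and within-library ratios. The cell type label conflicts with the titles (it puts WT in group 2 and KO in group 3 throughout); the titles, which cross genotype and sorted group, were used. GENCODE M21 named 34490 of 35275 identifiers; the other 785 held 0.119 to 0.128% of counts.

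Genes with at least 2 CPM in 1 library were kept and TMM-scaled. edgeR 4.0.16 (R 4.3.3) fitted sorted group plus genotype by quasi-likelihood, with Benjamini-Hochberg adjustment over 12490 genes and a threshold of 0.05. The common biological coefficient of variation was 0.170, and the prior degrees of freedom were infinite, so every gene took the trend's error. Ratios between 2 libraries carry exact conditional binomial (Clopper-Pearson) 95% intervals that cover counting error only, as reads without molecular identifiers are not independent molecules. Log2 ratios used a pseudocount of 0.5 CPM; a gene past 2-fold with an interval excluding 1 was counted. The fits were also run on counts simulated from the fitted dispersion trend with no interaction. Such a run checks the code and not the variation between mice. The alternatives were other scalings, filters, pseudocounts, tools, models and left-out libraries; scaling over all listed genes and merged exon lengths were added after seeing the data. DESeq2 1.42.0 and limma 3.58.1 were used for alternatives.

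The members and lists were chosen with earlier results of these data known. Named beside the members were, per list and effect, up to 4 genes passing edgeR's test with the smallest adjusted p, otherwise the 2 most abundant; of markers of other cells, up to 3 of the most abundant. Trac, Cd5, Ctnnb1, Tcf7l1, Tcf7l2, Siglech, Tlr9, Pax5, Zbtb16 and Ncr1 were named after their values were seen.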

Additional observations from a re-analysis of the deposited data

Results flagged for a closer look

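Sox4 and Tcf7 moved in opposite directions in groups that share a contrast; the difference was not tested, as each group holds 1 library. The ratio of the library labelled KO to WT for Sox4 was 1.278 in group 2 and 0.8321 in group 3, and its ratio of group 3 to group 2 was 1.156 in WT and 0.7526 in the libraries labelled KO. The 2 libraries with high Sox4 also listed more genes with counts; the part of this was not tested. For Tcf7 the ratio of group 3 to group 2 was 1.016 in WT and 0.8589 in the libraries labelled KO.

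Of the erythroid markers, Hbb-bs (β-globin) stood at 1.445 times WT in the group 2 library labelled KO and 0.9105 times in group 3. It was highest in KO group 2 and WT group 3, the libraries that listed more genes with counts, at 191 CPM in WT group 2, 197 in WT group 3, 275 in KO group 2 and 180 in KO group 3. The ratio of WT group 3 to WT group 2 was 1.04, with a counting interval that included 1 (0.969 to 1.11). Hba-a2 (α-globin) stood at 1.138 times from group 2 to group 3 in WT and 0.7754 times in the libraries labelled KO. Neither difference was tested. The globin genes are near-identical copies, so their counts are uncertain.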

How the results depend on the processing

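No paired analysis was possible because the labels give no replicate numbers and each group holds 1 library. Of the 10 factors, 1 passed the genotype test, and 0 passed with a 10 CPM filter, DESeq2, limma-voom, robust shrinkage, without sorted group in the model, or without any 1 library (0 to 0). Between sorted groups 2 passed, and 0 without genotype in the model or without any 1 library (0 to 0). Where 1 library was left out, the model held only the factor tested, without sorted group or genotype as the other term. The lone library was assumed to vary like the others. Over all genes, edgeR called 602 for genotype, against 178 by DESeq2, 23 without sorted group and 36 to 209 with 1 library left out. It called 419 for sorted group, against 139 by DESeq2, 14 without genotype and 10 to 45 with 1 library left out. Genes past 2-fold numbered 1111 for genotype in group 2, 970 for genotype in group 3, 884 for the WT step and 979 for the step in the libraries labelled KO. In that order they numbered 426, 304, 289 and 341 with a pseudocount of 2 CPM, 2481, 2120, 2021 and 2077 at 1.5-fold, and 279, 206, 187 and 199 with a 10 CPM filter. At 1.5-fold, 2 factors passed in the WT step and 1 in the step of the libraries labelled KO. E proteins over Id genes gave steps of 1.07 in WT and 0.924 in the libraries labelled KO on raw counts, and with merged exon length a genotype ratio of 1.12 in group 2 and a WT step of 1.22; the lengths weight the genes differently. Scaling over all listed genes turned the WT step of Tcf7 to -0.0054 log2. Several values that did not pass also changed sign. With library totals the genotype effects of Id2, Id3 and Sox4 were -0.017, -0.0026 and -0.0021 log2, and both genotype ratios of Id3 were below 1. With 1 library left out the genotype effect ranged from -0.46 to 0.46 log2 for Id2, -0.13 to 0.21 for Id3 and -0.16 to 0.25 for Sox4. It ranged from -0.56 to 0.26 for Myb and -0.03 to 0.25 for Tcf3. Those fits lacked sorted group, so the ranges also hold the steps between sorted groups. Within a sorted group, the log2 ratio of Id2 between genotypes was -0.058 in group 2 and 0.12 in group 3. The sorted group effects of Tcf3, Tcf7, Lef1, Sox4 and Satb1 also crossed 0 with 1 library left out, in fits that lacked genotype. Ratios near 1 turned for Myb between genotypes in group 3 and for Tcf3 between the libraries labelled KO with scaling over all listed genes, as did the change in the Id3 ratio between sorted groups with DESeq2 size factors. Depth leaves Tcf4, with 310 to 498 counts, the widest intervals.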

Other observations

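Other transcription factors of the double-positive to mature transition changed between sorted groups. Of 23, 4 rose and 5 fell from group 2 to group 3 by edgeR's shared test. Zbtb7b, the factor of CD4 lineage commitment, rose by 1.82 log2 (SE 0.29, adjusted p = 5.12e-08), with 4.67 CPM in WT group 2, 19.7 in WT group 3, 6.91 in KO group 2 and 20.7 in KO group 3. Klf2, which drives egress genes, rose by 0.83 log2. Ikzf2 (Helios) fell by 1.43 log2 between sorted groups and by 0.76 log2 in the libraries labelled KO, with 305, 113, 181 and 66.8 CPM. Nfatc1 rose by 0.49 log2 in the libraries labelled KO (SE 0.15, adjusted p = 0.0255) and fell by 0.73 log2 between sorted groups.

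Among 10 measured relatives of Myb, Sox4 and Satb1, 1 rose and 2 fell in the libraries labelled KO, and none passed between sorted groups. Tox2, an HMG-box factor, had 24 CPM in WT group 2, 13.4 in WT group 3, 49.4 in KO group 2 and 41.2 in KO group 3 (1.32 log2, SE 0.21, edgeR adjusted p = 1.25e-07). The chromatin proteins Hmgb2 and Hmgb1 fell by 0.52 and 0.39 on the log2 scale. Hmgb2 is known to rise with proliferation, and 11 of 16 proliferation genes fell in the same libraries; the part of one in the other was not tested.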
